A study of Mus musculus with 6 samples.

Results

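The 10 genes studied here belong to the Notch signalling pathway and were followed through the cells of the mouse mammary gland as it passed from normal ducts to invasive tumors. The set held the 4 receptors Notch1, Notch2, Notch3 and Notch4, the 4 ligands Jag1, Jag2, Dll1 and Dll4, and the 2 target genes Hes1 and Hey1, and it was named by gene and not by measured value. These were 10 of the 31055 genes in the count tables. They were read in 4 cell classes (luminal epithelial, basal or myoepithelial, endothelial and pericyte cells) and in 3 disease states.

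The 6 libraries came from female C3Tag mice, which carry the SV40 large T antigen, an oncoprotein, under the C3(1) promoter on an FVB/NJ background. All 3 states carry the transgene, so there was no wild-type gland among the libraries. Prepuberty libraries were made from whole mammary glands at 5 weeks, DCIS libraries from whole glands with ductal carcinoma in situ at 14 weeks, and Tumor libraries from palpable tumors at more than 18 weeks, with 2 libraries in each state. Cells were dissociated, captured in droplets and counted by unique molecular identifiers (UMIs, 1 per captured RNA molecule) at the 3′ ends of transcripts. Where nothing says that libraries of a state came from separate mice, p-values measure the spread between these libraries, which may be technical. In one source the glands were digested overnight with enzymes and the tumors with a tumor dissociation kit. Another source gives a single digestion for all samples. The first source also gives a later reagent version for Tumor 2 than for the other libraries, which the second does not. State and preparation cannot be told apart.

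Notch receptors are transmembrane proteins that are activated by Jagged or Delta-like ligands on a neighbouring cell. Binding lets ADAM proteases and then gamma-secretase cut the receptor, and the freed intracellular part joins RBPJ and Mastermind proteins on DNA to switch on genes such as Hes1 and Hey1, which encode basic helix-loop-helix repressors. In the mammary gland Notch signalling is known for its part in luminal cell fate, in vessels Dll4 and Notch1 govern the choice between tip and stalk cells, and Notch3 is known as the receptor of mural cells, the pericytes and smooth muscle cells around vessels.

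On the mouse genome build GRCm38 the receptors lie at chr2:26457903-26516663 (Notch1, minus strand), chr3:98013527-98150361 (Notch2, plus strand), chr17:32120820-32166852 (Notch3, minus strand) and chr17:34564268-34588503 (Notch4, plus strand). The ligand genes lie at chr2:137081456-137116644 (Jag1, minus strand), chr12:112907819-112929776 (Jag2, minus strand), chr17:15367354-15376872 (Dll1, minus strand) and chr2:119325784-119335962 (Dll4, plus strand). The target genes lie at chr16:30064384-30067796 (Hes1, plus strand) and chr3:8663359-8667256 (Hey1, minus strand).

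Promoter sequence, the 250 bases before a RefSeq start on GRCm38.p6, was on hand for 8 of the 10 genes and not for Hes1 or Hey1. Both strands were searched for TGGGAA, the core letters of the RBPJ binding motif, and for CACNAG, the N box bound by HES proteins. The TGGGAA letters were in 0 of the 8 genes' windows, against 21.6% of 32851 promoters of the same length, and CACNAG was in 4 of them (Notch1, Notch2, Notch3 and Dll4), against 36.7% of all promoters. The windows of Dll4 and Notch3 are shown as those of a ligand that rose and a receptor that fell in Tumor endothelial cells against Prepuberty, each with a match. Dll4 at chr2:119325534-119325783 on the plus strand holds 1 CACNAG match, 75 bases before the start, and Notch3 at chr17:32166891-32167140 on the minus strand holds 2 matches, 204 and 159 bases before it. Matches are in capitals, either as CACNAG or as its reverse complement, and a match is a run of letters and not a measured site.
Dll4: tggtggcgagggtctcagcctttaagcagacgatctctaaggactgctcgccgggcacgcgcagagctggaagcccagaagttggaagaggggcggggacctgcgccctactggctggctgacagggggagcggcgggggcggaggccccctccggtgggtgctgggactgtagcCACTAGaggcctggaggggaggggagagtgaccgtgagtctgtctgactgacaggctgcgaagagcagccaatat
Notch3: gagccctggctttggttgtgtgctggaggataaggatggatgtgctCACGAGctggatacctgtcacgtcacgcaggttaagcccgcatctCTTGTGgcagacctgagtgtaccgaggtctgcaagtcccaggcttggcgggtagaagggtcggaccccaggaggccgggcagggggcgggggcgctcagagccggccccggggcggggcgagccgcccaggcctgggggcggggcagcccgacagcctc

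After removal of poor-quality barcodes and predicted doublets, 21505 of 23835 barcodes were kept, with 2545 to 4298 cells, 28487539 to 56973455 UMIs and a median of 6568 to 13618 UMIs per cell in a library. Library pairs shared 7 to 32 cell barcodes, at most 0.828% of a library. Luminal cells numbered 803 and 153 in Prepuberty, 1366 and 1009 in DCIS, and 2816 and 1372 in Tumor. Endothelial cells numbered 711 and 671, 426 and 354, and then 76 and 34 in the same order. Pericytes numbered 231 and 397, 97 and 194, and 27 in Tumor 1, while Tumor 2 held only 7 and was left out of pericyte results. Tumor values of the vascular classes therefore rest on few cells. Clusters 12, 18 and 21 passed fewer than 3 markers of any type and were left out of every class. They held 221, 119 and 68 cells of Tumor 1 and 255, 129 and 75 cells of Tumor 2. T antigen was seen in 46.2%, 18.5% and 52.4% of their cells, so the classes do not cover all cells with T antigen.

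Each class was checked against its markers. Luminal and endothelial cells expressed all 10 and all 11 of their listed markers in every library, and pericytes all 11 of theirs. The basal cells formed cluster 9, with 83 and 121 cells in Prepuberty, 188 and 637 in DCIS, and 58 and 94 in Tumor. Its Prepuberty and DCIS cells carried the smooth muscle actin gene Acta2 at 3228 to 7351 CPM (counts scaled to a total of 1e6 UMIs for the class in a library), but its Tumor cells had 0 UMIs of Acta2. Those Tumor cells carried T antigen at 96.0 and 79.3 CPM, and the 10 luminal markers summed to 5949 and 2825 CPM, against 715 to 1658 CPM in the glands. The basal markers did not move together. All 6 listed basal markers were seen in both Tumor libraries and summed to 1802 and 4407 CPM, against 2333 to 3547 CPM in the glands, and the basal keratin gene Krt14 was at 1039 and 3871 CPM, against 825 to 1512 CPM. The oxytocin receptor gene Oxtr, a myoepithelial marker, was at 2.95 and 7.51 CPM, against 128 to 226 CPM. The basal keratin gene Krt5 was at 48.7 and 47.6 CPM, against 222 to 369 CPM, and Trp63, a basal transcription factor gene, at 8.9 and 109 CPM, against 77.1 to 110 CPM. The basal label thus held in part, and these are called Tumor cells of cluster 9 here. The luminal label of Tumor cells also held in part. Their 10 luminal markers summed to 8465 and 5410 CPM, against 8921 to 14878 CPM in the glands. Krt14 was at 517 and 2075 CPM in them, against 81.8 to 362 CPM. The luminal keratin gene Krt18 was at 2352 and 574 CPM, against 2815 to 6228 CPM. Epcam, an epithelial gene, was higher, at 2705 and 2791 CPM against 1183 to 2470 CPM. T antigen was at 263 and 58.5 CPM, against 1.3 to 37.3 CPM. The class name is kept for them. Pericyte cells of Tumor 1 carried the fibroblast collagen gene Col1a1 at 3501 CPM, against 11.98 to 30.7 CPM in the glands, with Rgs5, a pericyte marker, at 3778 CPM. The pericyte class joined 2 clusters. Cluster 17, with Rgs5 and Kcnj8 among its leading genes, passed 6 pericyte markers, and cluster 15, with Pln, Myh11 and Des among its leading genes, passed 3. Pln and Myh11 are genes of contractile smooth muscle, and the name pericytes covers both clusters here.

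The members divided the 4 classes in the Prepuberty and DCIS glands, where all 4 libraries could be placed in each class. Levels below are CPM of a class within a library, given for 1 gene across classes and never between genes, and an order is called separate only where the ranges over the 4 libraries did not overlap.

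Among the receptors, Notch1 was highest in endothelial cells, at a mean of 90.6 CPM (range 77.5 to 101), then in luminal cells at 52.2 (40.2 to 66.5), in pericytes at 22.0 (11.7 to 29.6) and in basal cells at 13.8 (10.0 to 21.9). The endothelial and luminal levels were separate from each other and from the rest, and pericyte and basal levels overlapped. Notch2 was highest in pericytes at 130 CPM (80.9 to 160), separate from the luminal level of 26.3 (23.8 to 29.7), which overlapped the basal level of 14.6 (6.2 to 28.2) and lay above the endothelial level of 10.9 (5.4 to 18.2). In cluster 17 of the pericytes alone Notch2 was 8.5 to 72.1 CPM in the glands, which overlapped the luminal range. Notch3 averaged 75.4 CPM in pericytes (55.6 to 89.2), and the endothelial range of 3.9 to 58.8 CPM reached into it. Notch3 in luminal cells, 15.02 CPM, was separate from the basal 1.3 CPM. Notch4, a receptor known mainly from endothelium, averaged 36.2 CPM in endothelial cells (16.9 to 48.8) and at most 2.8 CPM in any other class.

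By mean level the ligands were highest in basal cells or, for Dll4, in endothelial cells, and Jag1 was also high in pericytes. Jag1 averaged 96.4 CPM in basal cells (78.5 to 121), 61.3 in pericytes (37.5 to 108) and 41.9 in endothelial cells (31.5 to 58.1), with neighbouring ranges overlapping, and the luminal level of 8.1 CPM (6.1 to 9.6) lay apart below them. Jag2 gave a fully separate order, from basal cells at 28.5 CPM (20.04 to 34.7) through endothelial cells at 10.9 (8.9 to 13.3) to luminal cells at 1.5 (0.5 to 2.6). No Jag2 UMI was seen in pericytes of any library, where the upper 95% Poisson limit was 2.16 to 9.32 CPM in the 4 gland libraries, for counting error only. Dll1 averaged 40.9 CPM in basal cells and 24.2 in endothelial cells, which overlapped, and 1.7 and 1.3 CPM in luminal cells and pericytes. Dll4 was an endothelial gene, at 77.7 CPM (52.4 to 96.9) there and at most 1.2 CPM on average in the other classes.

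Of the targets, Hes1 averaged 104 CPM in pericytes, 84.5 in endothelial cells and 77.4 in luminal cells, with overlapping ranges, and 18.4 CPM in basal cells (7.7 to 29.2), separate from the luminal range of 30.5 to 132. Hey1 averaged 22.7 CPM in endothelial cells (16.9 to 30.6) and was separate there from basal cells at 6.7 (2.6 to 9.1), with pericytes at 1.4 and luminal cells at 1.2 CPM. The plot of all 10 genes by class and state shows these patterns with the Tumor values beside them.

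**Figure D1:**
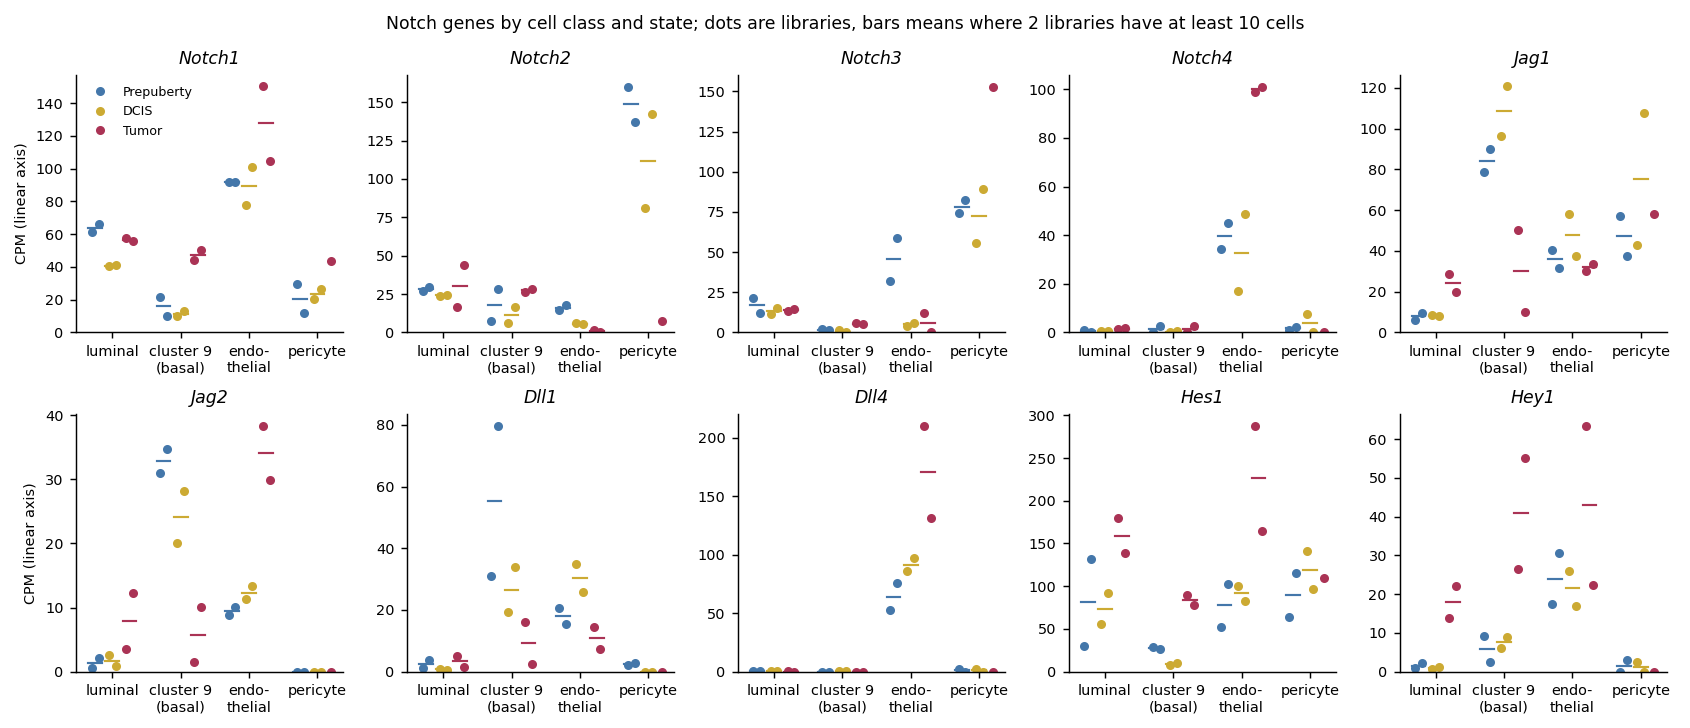
Levels of the 10 Notch genes as CPM on linear axes, 1 panel per gene, with the 4 cell classes along the x axis and the 3 states in color. Dots are libraries with at least 10 cells of the class and bars are means where 2 such libraries exist. Dll4 and Notch4 rise above 8 CPM only in endothelial cells, Jag2 has no UMI in pericytes, and the luminal Hey1 dots of Tumor (13.8 and 22.1) lie above those of the glands (at most 2.2).

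To ask which members changed between states, the UMIs of a class were summed within each library and compared with edgeR's quasi-likelihood test. The p-values were adjusted by Benjamini-Hochberg over all genes tested in that class, and a gene passed at an adjusted p under 0.05. Fold changes are log2 values scaled by TMM, relative to most genes of the class, and are given with their SE.

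In luminal epithelial cells the change that passed was in Hey1. Its UMI counts were 12 and 5 in Prepuberty, 10 and 20 in DCIS, and 610 and 602 in Tumor, or 0.91 and 2.19 CPM, 0.60 and 1.27 CPM, and 13.8 and 22.1 CPM. Both Tumor libraries lay above all 4 gland libraries, and the Prepuberty and DCIS values overlapped. Hey1 rose in Tumor against DCIS by a log2 fold change of 3.82 (SE 0.58, adjusted p = 0.0361, n = 2 against 2) and against Prepuberty by 3.45 (SE 0.61, adjusted p = 0.0311). It was 1 of 9 members tested in each, and 1.37% and 6.4% of the 13378 genes tested passed in the same comparisons. The adjusted p against DCIS was 0.147 without DCIS 1 and 0.190 without DCIS 2, and against Prepuberty it was 0.167 without Prepuberty 1 and 0.105 without Prepuberty 2. The call against DCIS was also lost with the replicate block (adjusted p = 0.0617) and when only the 2 states were compared (0.0705).

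Hey1 was not spread evenly over the luminal clusters. In Tumor it was highest in cluster 5, a cluster with secretory luminal markers, at 34.8 and 38.3 CPM, and in clusters 2, 3, 4 and 14 it lay between 5.8 and 23.6 CPM. Cluster 4 also had secretory luminal markers, and Hey1 there was 13.7 and 13.2 CPM. Cluster 11, the hormone-sensing luminal cells, held 0 Hey1 UMIs among 37 cells of Tumor 2. Within clusters 2, 3, 4, 5 and 14 each Tumor value was above each gland value of that cluster, of which the highest was 4.7 CPM. These clusters joined Tumor and gland cells by integration of the libraries. Without it, luminal clusters of 1703 and 1600 Tumor 1 cells and of 890 Tumor 2 cells held at most 6 cells of any gland library. Hormone-sensing cells made up 335 of 956 luminal cells in Prepuberty, 431 of 2375 in DCIS and 45 of 4188 in Tumor. With that cluster left out, a choice made after the clusters were seen, the Hey1 change was 3.76 against DCIS (adjusted p = 0.0372) and 3.18 against Prepuberty (adjusted p = 0.0361).

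The share of luminal cells with a Hey1 UMI was 1.49% and 2.61% in Prepuberty, 0.659% and 1.78% in DCIS, and 14.4% and 21.6% in Tumor. After each cell was thinned to 2000 UMIs, it was 0.139% and 0%, 0.0814% and 0.420%, and then 2.96% (95% interval 2.37 to 3.67%) and 3.65% (2.71 to 4.80%). In macrophages, which should lack Hey1, at most 1.09% of cells had a UMI before thinning and at most 0.485% after it. Their median depth was 3878 to 6386 UMIs, against 6614 to 16884 in luminal cells. Exact binomial intervals cover counting error only. In fibroblasts Hey1 was 0.2 to 0.4 CPM in the glands and 5.8 and 18.7 CPM in Tumor, where T antigen also went from at most 0.75 CPM to 84.4 and 56.4 CPM.

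The other target, Hes1, gave no call in luminal cells. Its levels were 30.5 and 132 CPM in Prepuberty, 55.8 and 91.7 in DCIS, and 180 and 139 in Tumor. The Tumor values were the highest, but Prepuberty 2 came close to them. The log2 fold change of Tumor against DCIS was 0.74 (SE 0.62, adjusted p = 0.486). Hes1 was also high in Tumor outside these classes, at 148 and 173 CPM in fibroblasts against 9.0 to 27.3 CPM in the glands.

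Jag1 stood at 6.1 and 9.6 CPM in luminal cells of Prepuberty, 8.5 and 8.0 in DCIS, and 28.5 and 19.9 in Tumor. Both Tumor libraries were above all gland libraries, yet the log2 fold changes of 1.199 against DCIS (SE 0.39, adjusted p = 0.127) and 1.45 against Prepuberty (SE 0.41, adjusted p = 0.0761) did not pass. Without Tumor 2 they did, with adjusted p = 0.0389 and 0.0237, and DESeq2 gave 0.0281 against Prepuberty. Within Tumor, Jag1 was highest in cluster 2, at 40.4 and 31.4 CPM, and in cluster 5 it was 7.5 and 5.1 CPM, within the gland range of that cluster. Within clusters 2, 3 and 4 each Tumor value was above each gland value of that cluster. The higher Tumor value was 22.4 CPM in cluster 3 and 26.5 CPM in cluster 4. In cluster 14 a gland library was highest, at 54.3 CPM. Cluster 2, with Pthlh, Aqp3 and Klk8 among its leading genes, held 110 of 956 luminal cells in Prepuberty, 164 of 2375 in DCIS and 1540 of 4188 in Tumor. The part of this shift in the Jag1 level of the whole class was not tested.

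**Figure D2:**
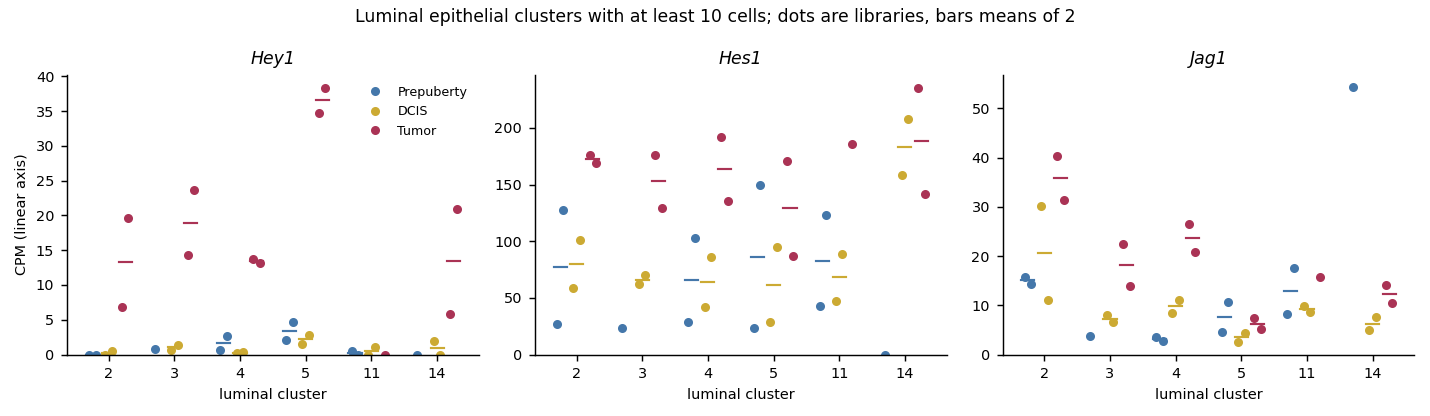
CPM of Hey1, Hes1 and Jag1 in the luminal epithelial clusters on linear axes. Dots are libraries with at least 10 cells of the cluster, colors are states and bars are means of 2 libraries. Tumor Hey1 peaks in cluster 5 (34.8 and 38.3) and is 0 in cluster 11, while Tumor Jag1 peaks in cluster 2 (40.4 and 31.4).

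The remaining ligands were sparse in luminal cells. Jag2 was 0.5 to 2.6 CPM in the glands and 3.6 and 12.3 CPM in Tumor, with a log2 fold change against Prepuberty of 2.52 (SE 0.96, adjusted p = 0.137). Dll1 was at most 5.1 CPM in any library, and Dll4, at most 0.7 CPM, was too low to be tested.

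No luminal receptor passed. Notch1 read 61.1 and 66.5 CPM in Prepuberty, 40.2 and 41.1 in DCIS, and 57.4 and 56.0 in Tumor, so DCIS was lowest in both libraries. Its log2 fold change in DCIS against Prepuberty was -0.53 (SE 0.28, adjusted p = 0.459). Notch2 was 23.8 to 29.7 CPM in the glands and 16.3 and 43.9 in Tumor, so the Tumor libraries lay on either side of the glands. Notch3 stayed between 11.2 and 21.5 CPM in all 6 libraries, and Notch4 was at most 1.6 CPM.

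In DCIS against Prepuberty 0 of 9 luminal members passed, as did 0% of all genes, with 0 members at an unadjusted p under 0.05 (12.2% of all genes) and 0 called by DESeq2. The median log2 fold change of the members was -0.15, and that of all genes 0.01. In Tumor against DCIS the 2 states did not overlap for 7 of 9 members, all higher in Tumor, while 59.8% of all genes did not overlap. The member median was then 1.14, against 0.09 over all genes. Tumor luminal cells also differed in T antigen, at 263 and 58.5 CPM against 1.3 to 37.3 in the glands, and in the summed level of 6 cycling genes, at 1166 and 2078 CPM against 155 to 914. The 6 basal markers summed to 1454 and 2526 CPM in them against 220 to 1033 in the glands, and in Tumor 2 the basal keratin gene Krt14 was at 2075 CPM and the luminal keratin gene Krt18 at 574 CPM. The part of these in the Hey1, Jag1 and Jag2 values was not tested.

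Basal cells could be compared only between Prepuberty and DCIS. Of 7 members tested 0 passed, as did 0% of 8488 genes, with 1 at an unadjusted p under 0.05 (11% of all genes) and 0 called by DESeq2. That gene was Hes1, at 29.2 and 27.0 CPM in Prepuberty and 7.7 and 9.6 in DCIS, with no overlap and a log2 fold change of -1.35 (SE 0.41, adjusted p = 0.372). The ligand Jag1 read 78.5 and 89.9 CPM in Prepuberty and 96.3 and 121 in DCIS, with a log2 fold change of 0.69 (SE 0.60, adjusted p = 0.691). Jag2 was 31.0 and 34.7 CPM and then 20.04 and 28.2 CPM, and Dll1, at 31.0 and 79.6 CPM in Prepuberty and 19.3 and 33.8 CPM in DCIS, overlapped between the states.

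The Tumor cells of cluster 9 differed from its gland cells in both ligands and targets. These values compare cells that differ in Acta2, Oxtr, T antigen and luminal markers, and without integration of the libraries the cluster held 0 Tumor cells. The 6 cycling genes summed to 313 and 303 CPM in its Tumor cells, against 1.3 to 63.9 CPM in the glands, and their part was not tested. Hes1 rose against DCIS by 2.64 (SE 0.39, adjusted p = 0.00246), with Tumor values of 90.0 and 77.6 CPM, and it passed under all 14 alternatives. Hey1 rose by 1.76 (SE 0.54, adjusted p = 0.0432), with Tumor values of 26.6 and 55.1 CPM against 6.2 and 9.0 in DCIS. Jag1 fell by 2.48 (SE 0.64, adjusted p = 0.0229) to 50.2 and 10.0 CPM, and Jag2 fell by 2.55 (SE 0.58, adjusted p = 0.0131) to 1.5 and 10.0 CPM. These were 4 of 7 members tested, and 24.2% of all genes passed in this comparison. Without DCIS 1 the adjusted p became 0.0688 for Jag1 and 0.254 for Hey1. Without DCIS 2 it became 0.0903 for Jag1, 0.0827 for Jag2 and 0.190 for Hey1, and without Tumor 2 it became 0.208 for Hey1. Hey1 also lost its call with DESeq2 (adjusted p = 0.0736), the replicate block (0.0525) and sums thinned to equal depth (0.145), and Jag1 at clustering resolution 1.2 (0.0650).

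Against Prepuberty, Jag2 fell by 2.66 (SE 0.60, adjusted p = 0.0265), Dll1 fell by 3.0 (SE 0.77, adjusted p = 0.0420) and Hey1 rose by 2.58 (SE 0.68, adjusted p = 0.0435) in the Tumor cells of cluster 9, which was 3 of 7 members, beside 9.84% of all genes. Without Prepuberty 1 the adjusted p values were 0.118 for Jag2, 0.0961 for Dll1 and 0.0736 for Hey1. Without Prepuberty 2 they were 0.131, 0.279 and 0.276 in the same order, and without Tumor 2 they were 0.0830 for Dll1 and 0.144 for Hey1. Each of the 3 also lost its call when only the 2 states were compared (0.0533, 0.0718 and 0.0780), Dll1 and Hey1 with the replicate block (0.0606 and 0.0596) and with thinned sums (0.0553 and 0.0870), and Jag2 and Dll1 without TMM (0.0554 and 0.0520). At resolution 1.2 the adjusted p of Jag2 was 0.0693.

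In endothelial cells the calls among the members lay between Tumor and Prepuberty. Jag2, Dll4 and Hes1 rose and Notch2 and Notch3 fell, 5 of 10 members tested, while 12% of the 10595 genes tested passed. By direction these were 3 members up and 2 down, beside 7.07% and 4.9% of genes. The plot of endothelial levels gives these genes with Notch4 and Hey1, for all endothelial cells and for the capillary cluster alone.

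Dll4, the Delta-like ligand of angiogenic vessels, read 52.4 and 75.5 CPM in Prepuberty, 86.0 and 96.9 in DCIS, and 210 and 131 in Tumor. The 3 states did not overlap. It rose in Tumor against Prepuberty by a log2 fold change of 1.43 (SE 0.32, adjusted p = 0.0227), and the change from DCIS to Tumor was 0.59 (SE 0.32, adjusted p = 0.244). The adjusted p against Prepuberty was 0.132 without Prepuberty 1, 0.0738 without Prepuberty 2 and 0.157 without Tumor 1, and with sums thinned to equal depth it was 0.0819.

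A Dll4 UMI was found in 23.5% and 37.1% of endothelial cells in Prepuberty, 33.8% and 42.4% in DCIS, and 65.8% and 29.4% in Tumor. Thinned to 2000 UMIs per cell, the shares were 9.98% and 12.9%, 13.4% and 16.2%, and then 31.1% (95% interval 20.8 to 42.9%) and 10.0% (1.23 to 31.7%), the last from 20 cells. No macrophage had a Dll4 UMI after thinning. Tumor 1 and Tumor 2 thus disagreed in the share of cells with Dll4, with intervals that overlapped, and the higher CPM of Tumor 2 over the glands was not seen in its share of cells.

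Jag2 read 8.9 and 10.0 CPM in Prepuberty, 11.3 and 13.3 in DCIS, and 38.3 and 29.9 in Tumor, where it rested on 29 and 8 UMIs. The Tumor libraries lay above all others. Jag2 rose against Prepuberty by 1.87 (SE 0.35, adjusted p = 0.0112). The adjusted p was 0.0606 without Prepuberty 2 and 0.140 without Tumor 1.

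The other ligands gave no call. Dll1 read 20.7 and 15.4 CPM in Prepuberty, 34.9 and 25.8 in DCIS, and 14.5 and 7.5 in Tumor, with DCIS highest. Its log2 fold changes were 1.07 in DCIS against Prepuberty (SE 0.35, adjusted p = 0.346) and -1.64 in Tumor against DCIS (SE 0.49, adjusted p = 0.0595). Jag1 was 40.5 and 31.5, 58.1 and 37.3, and 30.4 and 33.7 CPM in the same order, with overlap between Prepuberty and the other states.

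Of the targets, Hes1 rose. It read 52.5 and 102 CPM in Prepuberty, 100 and 82.5 in DCIS, and 288 and 165 in Tumor, with Prepuberty and DCIS overlapping and Tumor above both. The log2 fold change against Prepuberty was 1.58 (SE 0.40, adjusted p = 0.0363), and the adjusted p was 0.176 without Prepuberty 1, 0.279 without Tumor 1 and 0.0572 when only the 2 states were compared. Hey1 read 17.4 and 30.6, 26.1 and 16.9, and 63.3 and 22.4 CPM. The Tumor 2 value lay within the gland range, and the change against Prepuberty was 1.01 (SE 0.49, adjusted p = 0.215).

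The receptors that passed, Notch2 and Notch3, both fell. Notch2 fell from 14.3 and 18.2 CPM in Prepuberty (82 and 125 UMIs) to 1.3 and 0 CPM in Tumor (1 and 0 UMIs), with DCIS between them at 6.0 and 5.4 CPM. The fitted log2 fold change against Prepuberty was -4.01 (SE 0.80, adjusted p = 0.0146). Because 1 Tumor UMI underlies it, the ratio of pooled levels is given with its counting interval, 0.0596 of the Prepuberty level (95% interval 0.00150 to 0.335). The adjusted p was 0.0502 without Prepuberty 2 and 0.0536 without Tumor 1.

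Notch3 read 32.2 and 58.8 CPM in Prepuberty, 3.9 and 6.1 in DCIS, and 11.9 and 0 in Tumor, from 9 and 0 UMIs. Prepuberty alone was high, and DCIS and Tumor overlapped. Notch3 fell in Tumor against Prepuberty by 2.42 (SE 0.62, adjusted p = 0.0375), and the adjusted p was 0.132 without Prepuberty 2 (log2 fold change -2.08) and 0.0742 without Tumor 2 (-1.85). Without Tumor 1 the Tumor library left had 0 UMIs, and the fitted value of -10.30 is then no measure of size. In DCIS against Prepuberty the log2 fold change was -2.85 (SE 0.49, adjusted p = 0.180), a difference that DESeq2 did call (adjusted p = 0.00243).

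The pericyte markers Rgs5 and Pdgfrb were highest in Prepuberty, as these 2 receptors were. In the endothelial cells Rgs5 stood at 476 and 614 CPM in Prepuberty, 99.7 and 248 in DCIS, and 131 and 48.6 in Tumor, and Pdgfrb, the pericyte growth factor receptor, at 67.1 and 115 CPM in Prepuberty and 3.7 to 23.3 CPM elsewhere. All 11 pericyte markers were seen in 5 libraries and 8 in Tumor 2, and their summed level was 659 and 946 CPM in Prepuberty, 156 and 386 in DCIS, and 628 and 565 in Tumor, so Prepuberty was highest, with Tumor 1 close to Prepuberty 1 and both Tumor libraries above DCIS. Among endothelial cells with no UMI of any of these markers, a subset chosen after the markers were seen, the Notch2 change against Prepuberty was -0.66 (adjusted p = 0.889) and Notch3 was too low to be tested. That subset held 347 and 176 cells in Prepuberty, 322 and 188 in DCIS, and 18 and 13 in Tumor. In it the adjusted p was also 0.405 for Jag2, 0.362 for Dll4 and 0.588 for Hes1, with log2 fold changes of 1.74, 1.09 and 0.70, and 0 of the 4 calls that could be tested held.

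Notch4 read 34.3 and 45.0 CPM in Prepuberty, 16.9 and 48.8 in DCIS, and 99.0 and 101 in Tumor. Both Tumor libraries were above all glands, but the log2 fold changes of 1.28 against DCIS (SE 0.41, adjusted p = 0.0706) and 1.30 against Prepuberty (SE 0.40, adjusted p = 0.0685) did not pass. Notch1 read 91.8 and 92.1, 77.5 and 101, and 150 and 105 CPM, with a change against Prepuberty of 0.47 (SE 0.29, adjusted p = 0.333).

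In Tumor against DCIS 0 of 10 endothelial members passed and 13.7% of all genes did, with 6 members at an unadjusted p under 0.05 (30.6% of all genes) and 0 called by DESeq2. In DCIS against Prepuberty 0 of 10 members and 0% of genes passed, with 4 members at an unadjusted p under 0.05 (11.3% of all genes), and DESeq2 called 1, the lower Notch3 above. In Tumor against Prepuberty the member median was 0.74 and that of all genes -0.03, and 8 of 10 members did not overlap between the states, against 54.5% of all genes.

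Endothelial cells fell into a capillary cluster 7, led by Gpihbp1, and a venous cluster 10, led by Ackr1 and Selp. Cluster 7 held 838 of 1382 endothelial cells in Prepuberty, 352 of 780 in DCIS and 100 of 110 in Tumor. Across libraries with at least 10 cells, Notch1 ranged from 96.4 to 150 CPM in cluster 7 and from 48.7 to 71.7 CPM in cluster 10, and Jag2 from 10.6 to 29.7 and from 3.5 to 8.0 CPM, without overlap. Within cluster 7 alone, a choice made after the clusters were seen, Tumor against Prepuberty gave Notch2 -3.74 (adjusted p = 0.0224), Notch3 -2.59 (adjusted p = 0.0150), Dll4 1.43 (adjusted p = 0.0148) and Hes1 1.66 (adjusted p = 0.0350). For Jag2 the value was 1.27, and its adjusted p was 0.0518. Without integration of the libraries 62 and 15 Tumor endothelial cells formed a cluster with 0 gland cells. Another 5 and 12 Tumor cells lay in a cluster with 378 and 525 Prepuberty cells. Tumor endothelial cells also carried more of the 6 cycling genes, 290 and 973 CPM against 5.7 to 39.5 in the glands, and their part in these results was not tested.

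**Figure D3:**
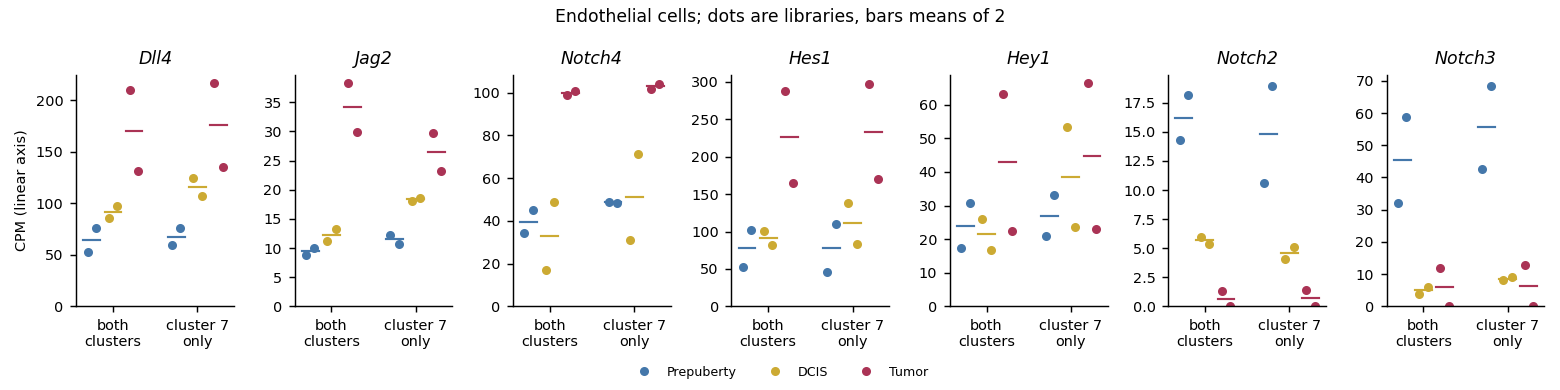
CPM of 7 Notch genes in endothelial cells on linear axes, for both endothelial clusters together and for capillary cluster 7 alone. Dots are libraries, colors are states and bars are means of 2. Dll4, Jag2, Notch4 and Hes1 are highest in the 2 Tumor libraries in both views, and Notch3 is highest in the 2 Prepuberty libraries (32.2 and 58.8 over both clusters).

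Whether a change differed between endothelial and luminal cells was tested as an interaction of class and state, with the library as a term. In Tumor against DCIS 3 of 10 members differed, beside 3.97% of 13216 genes. The endothelial minus luminal difference of log2 fold changes was -2.22 for Jag1 (SE 0.50, adjusted p = 0.0349), -3.80 for Dll1 (SE 0.77, adjusted p = 0.0218) and -3.15 for Hey1 (SE 0.75, adjusted p = 0.0425). For Jag1 and Dll1 the 2 classes pointed in opposite directions, lower in Tumor endothelium and higher in Tumor luminal cells, although neither gene passed within either class. In Tumor against Prepuberty 1 of 10 differed, Notch2 by -3.63 (SE 0.92, adjusted p = 0.0396), beside 7.18% of genes, and in DCIS against Prepuberty 0 of 10 did, beside 0.053% of genes. In that last comparison 4 members, Notch1, Notch2, Notch3 and Dll1, had an unadjusted p under 0.05, beside 12% of all genes. Without the library term the adjusted p values were 0.117, 0.145, 0.117 and 0.0666 for Jag1, Dll1, Hey1 and Notch2. The plot of changes sets both classes side by side.

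**Figure D4:**
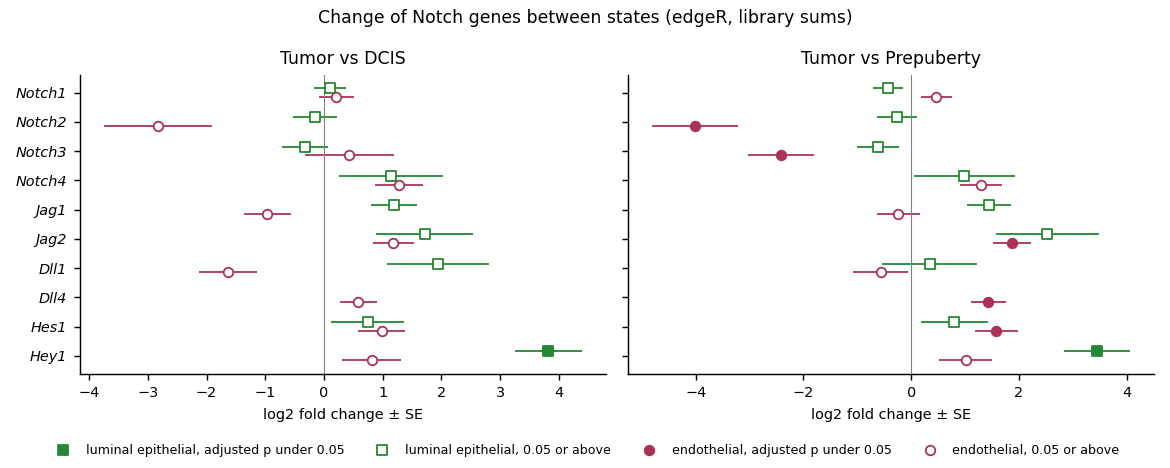
Log2 fold changes of the Notch genes, Tumor against DCIS and Tumor against Prepuberty, in luminal epithelial cells (squares) and endothelial cells (circles), with bars of 1 SE. Filled symbols passed at an adjusted p under 0.05. In luminal cells the filled symbol is Hey1 (3.82 and 3.45), and in endothelial cells 5 genes are filled against Prepuberty and 0 against DCIS.

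Pericytes were compared with 1 Tumor library, whose spread is assumed to be that of the other libraries. In its 27 cells the 8 fibroblast markers summed to 8663 CPM, beside 8495 CPM for the 11 pericyte markers and against 193 to 660 CPM of fibroblast markers in the glands. The 6 cycling genes summed to 379 CPM, against 2.9 to 109 CPM in the glands. The part of these in the pericyte changes below, of members and other pathway genes, was not tested. Notch2 read 160 and 137 CPM in Prepuberty, 80.9 and 142 in DCIS, and 7.3 CPM in Tumor 1, from 1 UMI in 27 cells. It fell in Tumor against DCIS by 4.10 (SE 0.89, adjusted p = 0.0159) and against Prepuberty by 4.26 (SE 0.88, adjusted p = 0.0123). As a ratio of pooled levels Tumor stood at 0.0601 of DCIS (95% counting interval 0.00151 to 0.340) and at 0.0501 of Prepuberty (0.00127 to 0.281). It was 1 of 5 members tested in each comparison, beside 6.08% and 3.85% of 8025 genes. DESeq2 did not call it (adjusted p = 0.126 and 0.125), nor did the test when the limit on mitochondrial UMIs was set to 5% (0.0849 and 0.106).

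The fall of Notch2 went along with a change in the share of the 2 clusters. Cluster 15, the one with smooth muscle genes in the lead, had Notch2 at 186 to 356 CPM in the 4 gland libraries, and cluster 17 had it at 8.5 to 72.1 CPM, without overlap. Cluster 15 was 363 of 628 pericytes in Prepuberty and 154 of 291 in DCIS, and in Tumor 1 it was 4 of 27. Within cluster 17 the Tumor 1 level of 8.8 CPM lay inside the range of the glands. Without integration of the libraries 25 Tumor 1 pericytes formed a cluster with 0 gland cells, and 2 lay with the gland pericytes. In a test of that cluster alone, a choice made after the clusters were seen, the Notch2 changes were -1.44 against DCIS (SE 1.71, adjusted p = 0.646) and -2.24 against Prepuberty (SE 1.52, adjusted p = 0.468), and 0 of 5 members passed.

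Notch3 showed no such split between clusters. It ranged from 49.6 to 128 CPM in cluster 15 and from 39.3 to 149 CPM in cluster 17. In all pericytes it read 74.5 and 82.1 CPM in Prepuberty, 55.6 and 89.2 in DCIS, and 153 CPM in Tumor 1, with log2 fold changes of 0.88 against DCIS (SE 0.44, adjusted p = 0.257) and 1.03 against Prepuberty (SE 0.43, adjusted p = 0.229). The 7 pericytes of Tumor 2, left out of the test, gave 418 CPM.

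The ligand Jag1 was 57.0 and 37.5 CPM in Prepuberty, 43.0 and 108 in DCIS and 58.2 in Tumor 1, and Hes1 was 63.6 and 115, 142 and 97.2, and 109 CPM. Neither separated the states. Jag1 followed the clusters, at 54.6 to 169 CPM in cluster 15 and 14.97 to 52.7 CPM in cluster 17. In DCIS against Prepuberty 0 of 5 members passed, beside 0.536% of all genes, with 1 at an unadjusted p under 0.05 beside 13.3% of all genes (Jag1, log2 fold change 0.97, adjusted p = 0.324) and 0 called by DESeq2. The 5 members not tested in pericytes (Notch4, Jag2, Dll1, Dll4 and Hey1) were at most 7.6 CPM in any library with at least 10 cells.

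**Figure D5:**
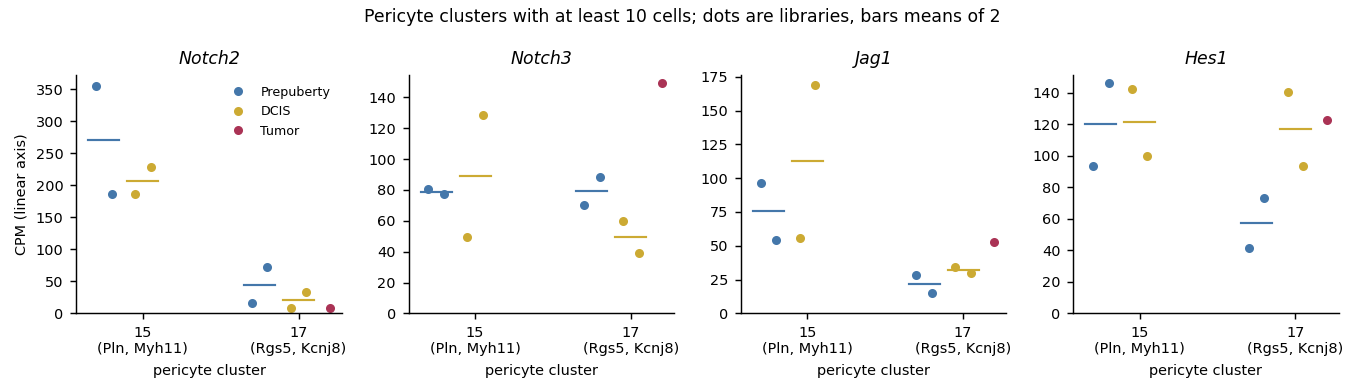
CPM of Notch2, Notch3, Jag1 and Hes1 in the 2 pericyte clusters on linear axes. Dots are libraries with at least 10 cells of the cluster, colors are states and bars are means of 2 libraries. Notch2 is at 186 CPM or more in every cluster 15 dot and at 72.1 CPM or less in every cluster 17 dot, including Tumor 1 at 8.8, while Notch3 overlaps between clusters.

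The other genes of the pathway were followed as a list of 40, from ligand processing to target genes. In DCIS against Prepuberty 0 of the 33, 24, 32 and 28 genes tested passed in luminal, basal, endothelial and pericyte cells, with 7, 1, 6 and 3 at an unadjusted p under 0.05, beside 12.2%, 11%, 11.3% and 13.3% of all genes. In endothelial cells of Tumor against DCIS 3 of 32 rose and 1 fell, and against Prepuberty 2 rose and 2 fell, beside 13.7% and 12% of all genes that passed in either direction, with medians of -0.13 and -0.23 over the list.

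Nrarp, a feedback inhibitor that Notch itself switches on, had the largest endothelial change of the list. It read 12.9 and 20.6 CPM in Prepuberty, 6.0 and 8.3 in DCIS, and 199 and 288 in Tumor. It rose by 4.68 against DCIS (SE 0.31, adjusted p = 0.000618) and by 3.78 against Prepuberty (SE 0.28, adjusted p = 0.000462). In pericytes it was 200 and 205 CPM in DCIS and 43.7 CPM in Tumor 1, and fell by 2.37 (SE 0.57, adjusted p = 0.0251), a value from 27 cells of which 4 were of cluster 15, against 154 of 291 in DCIS. The difference between the classes was not tested.

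Ccnd1, the cyclin D1 gene and a target shared with other pathways, rose in each of the 4 classes tested in Tumor against DCIS. It went from 16.2 and 2.5 CPM to 214 and 348 CPM in endothelial cells (log2 fold change 4.43, adjusted p = 0.00553) and from 8.7 and 13.4 to 133 and 124 CPM in luminal cells (3.16, adjusted p = 0.0323). The changes were 4.11 (adjusted p = 0.00281) in cluster 9, whose Tumor cells differ from the gland cells in markers as given above, and 4.47 (adjusted p = 0.00544) in the 27 pericytes of Tumor 1.

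Of the 6 genes of the nuclear complex around RBPJ tested in endothelial cells, 1 rose and 1 fell against DCIS, and 1 fell against Prepuberty. Over all genes 13.7% and 12% passed in these comparisons. The coactivator gene Maml1 fell against DCIS by 1.71 (adjusted p = 0.0218), and against Prepuberty the corepressor gene Spen fell by 1.51 (adjusted p = 0.0350). Psen2, a catalytic subunit of gamma-secretase, fell by 1.67 against Prepuberty (adjusted p = 0.0418). In luminal cells Dtx4, a Deltex ubiquitin ligase gene, fell from 24.99 and 34.1 CPM in Prepuberty and 14.8 and 25.5 in DCIS to 2.4 and 4.8 CPM in Tumor, by 2.93 against DCIS (adjusted p = 0.0333) and 3.34 against Prepuberty (adjusted p = 0.0231). In pericytes Rbpj itself fell by 3.32 against DCIS (adjusted p = 0.0403), while Dlk1, a noncanonical ligand, rose by 2.95 against DCIS (adjusted p = 0.0445) and 3.22 against Prepuberty (adjusted p = 0.0274), and Heyl, a target gene, rose by 2.46 against Prepuberty (adjusted p = 0.0453). These pericyte values rest on the same 27 cells, with the fibroblast markers given above. In cluster 9 Numbl, a Numb-like adaptor, fell by 1.95 against DCIS (adjusted p = 0.0319).

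The genes most like each member were found over 43 sums of a library and a named class, from 8 classes, among 13286 genes. These are descriptions, since sums of a library share its depth and preparation and sums of a class share its cells. Dll4 was most like the endothelial genes Robo4 (Pearson r 0.983), Myct1 (0.978) and Ptprb (0.974), and Notch4 was most like Clec1a (0.924), Nos3 (0.923) and Dll4 itself (0.921). Notch3 was most like Agtr1a (0.831), Trpc6 (0.831) and Bmp2 (0.827). The ligands Dll1 and Jag2 were alike at 0.788, and Jag2 was closest to Eva1a at 0.876. Hey1 was closest to Palmd (0.849), Notch1 to Pdlim5 (0.845), Hes1 to Atp9a (0.830), Jag1 to Fblim1 (0.819) and Notch2 to Urgcp (0.659), the lowest of these leading values.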

How the data were processed

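Single-cell RNA-seq libraries were analysed from 6 samples of C3Tag mice, 2 per state as the labels give them. The deposited values were UMI counts per gene and barcode, made by the authors with Cell Ranger (3.0.2 in the file headers) on mm10, without normalization. Barcodes with at least 200 genes and at most 10% mitochondrial UMIs were kept, and doublets were removed with Scrublet at the rate set by the number of barcodes, run in scanpy 1.11.5. Libraries were integrated and clustered in Seurat 5.3.0 (R 4.3.3; 2000 variable genes without the members and pathway genes, 20 components, resolution 0.8), and clusters were named from listed markers. UMIs were summed per library and class where at least 10 cells were present, expressed as CPM, and tested with edgeR 4.0.16 (quasi-likelihood F test, two-sided, TMM, low-count filter, 1 model over the 3 states), with Benjamini-Hochberg adjustment over all genes. DESeq2 1.42.0 was an alternative. The fit was tested on simulated data. Named genes were all members, list genes past the threshold (at most 5 per comparison) and the 3 genes most like each member on log2(CPM + 1). Some genes that met this rule are not reported here. The members and lists were chosen with earlier results of these data known. Total counts of 28487539 to 56973455 UMIs per library set the precision, and intervals cover counting error only. Equal replicate numbers did not pair samples, so the main tests between states used no replicate block, which was run as an alternative. Other alternatives were other filters, clusterings, scalings, sums thinned to equal depth and each library left out. Promoters were RefSeq sequences, and gene positions came from GENCODE on GRCm38.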

Additional observations from a re-analysis of the deposited data

Results flagged for a closer look

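A test of the difference itself set 4 changes of endothelial cells apart from those of luminal epithelial cells. In Tumor against DCIS the endothelial minus luminal difference of log2 fold changes was -2.22 for Jag1 (SE 0.50, edgeR interaction test, adjusted p = 0.0349), with fold changes of -0.97 in endothelial and 1.199 in luminal cells. For Dll1 the difference was -3.80 (SE 0.77, adjusted p = 0.0218), with -1.64 in endothelial and 1.94 in luminal cells, where the gene was at most 5.1 CPM. For Hey1 it was -3.15 (SE 0.75, adjusted p = 0.0425), with 0.82 in endothelial and 3.82 in luminal cells. In Tumor against Prepuberty it was -3.63 for Notch2 (SE 0.92, adjusted p = 0.0396), with -4.01 in endothelial cells, from 1 Tumor UMI, and -0.26 in luminal cells. All 6 libraries carried both classes. None of the 4 differences passed without a term for the library, where the adjusted p was 0.117, 0.145, 0.117 and 0.0666 in the same order.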

How the results depend on the processing

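Few cells and 2 libraries a state limit these results. Tumor endothelial and pericyte values rest on 110 cells and, from 1 library, 27 cells, and leaving out 1 library ended each of the 16 calls of members between states at least once, except that of Hes1 in cluster 9 and those of Notch2 in pericytes, where the only Tumor library could not be left out. Calls of the other pathway genes were not followed through these repeats, and the class differences were not refitted without a library. Tumor cells differ from gland cells in preparation and state together, and which libraries came from separate mice is not given in the sources used here. Fold changes depend on the scaling of each library sum. Without TMM the median of all genes shifted by -0.32 to 0.64 on the log2 scale, so changes are relative to that shift. None of the members past the threshold changed direction under any alternative that could test it.

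The number of members past the threshold moved as follows, and the cause was not tested. In luminal cells of Tumor against DCIS it was 1, and 0 with the replicate block and with only the 2 states compared. Against Prepuberty it was 1, but 3 if low counts were kept and 2 by DESeq2. In cluster 9 of Tumor against Prepuberty it was 3, and 1 with the replicate block, 0 with only the 2 states compared and 1 with thinned sums. In endothelial cells of DCIS against Prepuberty it was 0, but 1 by DESeq2, 2 if low counts were kept and 1 with the replicate block. In Tumor against DCIS it was 0, and 3 without TMM, 4 if low counts were kept, 2 with the replicate block, 2 without integration, 1 with mitochondrial UMIs under 5% and 1 with more doublets removed. Against Prepuberty it was 5, and 2 with thinned sums and 0 in cells without a pericyte-marker UMI, a much smaller set. In pericytes it was 1 in both Tumor comparisons, and 0 in both with DESeq2, with mitochondrial UMIs under 5% and in cluster 17 alone. The class difference held for 3 and 1 members, and for 0 and 0 without the library term. Leaving out each library in turn gave 0 to 2 members in both luminal Tumor comparisons, 1 to 5 and 0 to 4 in cluster 9, 0 to 1 in endothelial Tumor against DCIS, 1 to 4 in endothelial Tumor against Prepuberty and 0 to 1 in pericytes of DCIS against Prepuberty. The mean Jag2 level in pericytes was 0 CPM, and 0.104 CPM without integration. In cluster 9 no alternative without integration could be run for Tumor, since it held 0 Tumor cells.

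Equal replicate numbers marked no known pair, and the deviations of equally numbered libraries correlated between -0.08 and 0.35 over 10 pairs. With the replicate block 1 more endothelial member passed in Tumor against Prepuberty (6 against 5), and 3 instead of 4 passed in cluster 9 of Tumor against DCIS.

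Counts over all genes moved more. Over all alternatives they ran, in DCIS against Prepuberty, Tumor against DCIS and Tumor against Prepuberty, from 0 to 693, 0 to 2023 and 0 to 2754 in luminal cells, 0 to 177, 632 to 3068 and 170 to 1573 in cluster 9, 0 to 433, 234 to 2307 and 155 to 2184 in endothelial cells, and 10 to 382, 212 to 873 and 170 to 606 in pericytes. Without TMM the split of higher to lower calls moved from 55 to 128 to 114 to 64 in luminal Tumor against DCIS and from 399 to 457 to 633 to 284 against Prepuberty. It moved from 1069 to 989 to 2213 to 537 and from 383 to 452 to 574 to 311 in cluster 9, and from 744 to 703 to 1199 to 409 in endothelial Tumor against DCIS. In pericytes it moved from 40 to 3 to 10 to 3 in DCIS against Prepuberty.

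Values that did not pass changed sign in 25 cases under settings other than leaving out a library. Without TMM these were, in luminal cells, Hes1 in DCIS against Prepuberty (-0.12), Notch2 (0.31) and Notch3 (0.070) in Tumor against DCIS and Notch2 against Prepuberty (0.085), in endothelial cells of DCIS against Prepuberty Notch1 (-0.047), Notch4 (-0.28) and Hey1 (-0.17), and in pericytes Notch3 (-0.089). With thinned sums they were Notch1 in Tumor against DCIS (-0.20 luminal, -0.26 endothelial), Jag2 in basal cells (0.059), Hey1 in endothelial cells (-0.30) and Notch3 in pericytes (-0.46), the last 3 in DCIS against Prepuberty. Endothelial Notch4 in DCIS against Prepuberty was -0.00095 if low counts were kept, -0.043 with the replicate block and -0.080 in cells without a pericyte-marker UMI, where Notch2 in Tumor against DCIS was 0.29. In the capillary cluster Tumor against DCIS gave -0.14 for Notch1 and -0.16 for Notch3. Luminal Dll1 against Prepuberty was -0.021 without the hormone-sensing cluster, basal Notch1 in DCIS against Prepuberty was 0.31 at resolution 1.2, in cluster 17 of the pericytes Notch3 was -0.48 in DCIS against Prepuberty and Jag1 0.59 in Tumor against DCIS, pericyte Notch3 was -0.18 with mitochondrial UMIs under 5%, and the class difference of Notch1 in Tumor against DCIS was 0.043 without the library term.

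Leaving out each library in turn, 38 more sign changes fell on 28 values that did not pass. In luminal DCIS against Prepuberty the ranges were -0.68 to 0.35 for Notch3, -0.72 to 6.70 for Notch4, -0.22 to 1.70 for Jag2, -0.58 to 1.31 for Hes1 and -1.07 to 0.12 for Hey1. In luminal Tumor against DCIS they were -0.11 to 0.26 for Notch1 and -0.82 to 0.29 for Notch2, and against Prepuberty -0.92 to 0.18 for Notch2 and -1.002 to 1.08 for Dll1. In cluster 9 of DCIS against Prepuberty they were -0.66 to 0.61 for Notch1, -1.10 to 0.94 for Notch2, -0.29 to 0.035 for Jag2 and -1.14 to 0.038 for Dll1, and in Tumor against Prepuberty -0.28 to 1.47 for Notch2. In endothelial DCIS against Prepuberty they were -0.81 to 0.54 for Notch4 and -0.26 to 0.55 for Hey1. In endothelial Tumor against DCIS they were -0.40 to 0.52 for Notch1, -7.45 to 1.01 for Notch3, -0.11 to 0.95 for Dll4 and -0.59 to 1.30 for Hey1, and against Prepuberty -0.14 to 0.77 for Notch1, -0.52 to 0.060 for Jag1 and -0.40 to 1.48 for Hey1. In pericytes of DCIS against Prepuberty they were -0.17 to 1.32 for Notch1, -0.65 to 0.13 for Notch2 and -0.27 to 0.38 for Notch3, and in Tumor against DCIS -1.02 to 0.33 for Jag1 and -0.48 to 0.039 for Hes1.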

Other observations

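Outside the 4 classes, Hes1 stood higher in both Tumor libraries than in the glands in fibroblasts and macrophages, and Hey1 did in fibroblasts. No test was applied to these values. Hes1 read 9.0 and 17.5 CPM in fibroblasts of Prepuberty, 27.3 and 17.3 in DCIS, and 148 and 173 in Tumor. In macrophages it read 1.9 to 4.6 CPM in the glands and 34.9 and 11.7 CPM in Tumor. Hey1 in fibroblasts went from at most 0.4 CPM in the glands to 5.8 and 18.7 CPM in Tumor, and in macrophages it was at most 1.4 CPM in any library. Jag1 in fibroblasts was 4.4 to 10.8 CPM in the glands and 37.1 and 23.0 CPM in Tumor, while in macrophages the gland range of 6.4 to 42.2 CPM held both Tumor values, 8.4 and 9.0. Dll4 was at most 0.75 CPM in both classes. Markers of other cells moved with the fibroblast values. T antigen went from at most 0.75 CPM in the glands to 84.4 and 56.4 CPM in Tumor, the 10 luminal markers from 17.8 to 93.1 CPM in sum to 590 and 176 CPM, and the 6 basal markers from at most 11.1 CPM to 161 and 368 CPM, and their part in the values was not tested. In macrophages the basal markers summed to 56.5 and 40.7 CPM in Tumor, against 6.4 to 14.8 CPM in the glands, and Tumor 1 held luminal markers at 247 CPM (19.1 to 144 in the glands) and T antigen at 8.4 CPM (at most 1.3). In Tumor 2 luminal markers at 86.2 CPM and T antigen at 0.69 CPM lay within the gland range, and the part of these markers was not tested either. The way tumors were dissociated, which cannot be told apart from the Tumor state, applies to all of these classes.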
